A study of Mus musculus with 11 samples.

Results

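The locus described is an interval of 360 kb on mouse chromosome 4, chr4:153660001-154020000 on mm9, taken as the gene body of Prdm16. Its members are the deposited autosomal Xist peaks that overlap it by at least 1 bp, 45 of the 19818 peaks in 6 lists. The interval was chosen by the length of its peak calls, since it is among the longest regions called in both day 2 lists. Its peak numbers and covered lengths are therefore given as a description, with no test.

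The lists come from RNA antisense purification followed by sequencing (RAP-seq), in which probes against Xist RNA pull down the DNA that lies close to it. Female mouse embryonic stem cells, kept in LIF with the inhibitors CHIR99021 and PD0325901, had been moved to epiblast-like cells (EpiLCs) with Activin A and bFGF and were sampled on day 2 (D2) and on day 4 (D4), with 2 lists for each day. Female and male mouse embryonic fibroblasts (MEFs) gave 1 list each, so that MEF values have no replicate check. None of the groups had a further treatment, and strain and genotype are not given in the labels used here. Replicate 1 of both days is a re-analysis of libraries deposited earlier, and nothing in the labels says that replicates were separate cultures, so their spread may be technical.

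As background, Xist is a long noncoding RNA that spreads over an X chromosome of female cells and silences it. Male cells normally do not express it, and the male list is set beside the female ones for that reason. It is not a like-for-like comparison, since its lowest −log10 p (4.57) lies above that of every female peak in the interval (at most 3.74). Prdm16 encodes a zinc-finger transcription factor with a PR domain, known for the identity of brown fat cells and for roles in blood and neural stem cells and in craniofacial development. In RefSeq's gene order (GRCm38.p6) its protein-coding neighbours are Megf6 and Arhgef16 on the side of lower coordinates and Actrt2 and Ttc34 on the other. In that annotation Prdm16 lies on the minus strand, with its start toward the high-coordinate side, and 4 noncoding genes overlap it. No mm9 annotation was used, so exons, introns and the start site were not placed within the interval.

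The promoter of Prdm16 is shown because long peaks of both D2 lists ran through nearly all of the interval. Whether a peak holds the start itself was not determined. It is printed 5′ to 3′ on the minus strand, from RefSeq on GRCm38.p6, from 250 bases before to 50 after the start, with CpG pairs in capitals.
Prdm16: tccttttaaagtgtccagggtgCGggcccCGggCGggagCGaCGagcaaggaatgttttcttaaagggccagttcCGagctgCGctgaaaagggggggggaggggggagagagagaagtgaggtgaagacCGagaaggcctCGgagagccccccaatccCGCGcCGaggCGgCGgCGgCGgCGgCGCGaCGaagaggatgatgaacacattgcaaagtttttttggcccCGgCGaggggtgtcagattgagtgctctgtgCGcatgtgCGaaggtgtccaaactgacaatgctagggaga
This stretch of 300 bases holds 24 CpG pairs at a GC content of 61.0%. The median over the 32851 promoters of that table is 7 CpG pairs, and 20.0% of them hold at least 24.

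At D2 the interval was covered almost without a break. D2 replicate 1 covered all 360 kb with 1 peak, which ran from 153616054 to 154213598 and was number 5 by length of the 8227 peaks in its list (597.5 kb). D2 replicate 2 covered 345.2 kb, or 95.9%, with 3 peaks. Its main peak, from 153672939 to 154012653 (339.7 kb), was number 4 by length among 7544. A short peak of 4.80 kb lay before it, and another, from 154019320 to 154056768, entered the interval by only 0.681 kb. The uncovered parts of replicate 2 were 3.20 kb at the low edge, 4.94 kb after the short peak and 6.67 kb near the high edge.

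At D4 most of the interval was still called, in more and shorter peaks. D4 replicate 1 covered 290.5 kb (80.7%) with 9 peaks, and D4 replicate 2 covered 234.7 kb (65.2%) with 19. The longest peak of replicate 1, from 153832838 to 153996351 (163.5 kb), was number 2 by length in its list of 1553. In replicate 2 no peak of the interval was longer than 37.2 kb, the one from 153774346 to 153811497, number 7 by length of 1148. The other peaks of replicate 1 measured 2.93 to 44.7 kb and the other peaks of replicate 2 measured 1.05 to 33.5 kb. Both D4 lists thus lay below both D2 lists in covered length, and above them in peak number.

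The mean covered length was 352.6 ± 10.5 kb for D2, against 262.6 ± 39.5 kb for D4 (SD, n = 2 each). The difference of 90.0 kb is a description only, since the interval was chosen for its long D2 peaks. It was 69.5 kb within replicate number 1 and 110.5 kb within number 2. The length covered in every one of the 4 EpiLC lists was 184.1 kb, in 23 segments.

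Female MEFs covered 221.3 kb (61.5%) with 12 peaks, close to the length in D4 replicate 2. Of that length, 63.1% lay in a pair of peaks, from 153699607 to 153767706 (68.1 kb) and from 153936815 to 154008303 (71.5 kb). These were numbers 34 and 31 by length of the 1020 female MEF peaks. Male MEFs had 1 peak in the interval, from 153929669 to 153932880, which covered 3.21 kb or 0.892%. It had a fold enrichment of 2.90, a −log10 p of 5.11 and a −log10 q of 1.54. The next male peak toward lower coordinates lay 5164 kb before the interval, and the next in the other direction lay 32.8 kb after it, measured 0.197 kb and was the last male peak of the chromosome. All of the male peak lay under peaks of the 4 EpiLC lists, and 2.53 kb of it lay under a female MEF peak. The 44 peaks of the female lists in the interval had a −log10 p of at most 3.74, below the lowest of any peak in the male list (4.57). Regions with a −log10 p that low were thus not listed in male MEFs anywhere, and depth is unknown for every library. The −log10 q did not separate the lists in this way. The value of the male peak (1.54) lay within the range of the female peaks in the interval, 1.34 to 2.16.

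**Figure D1:**
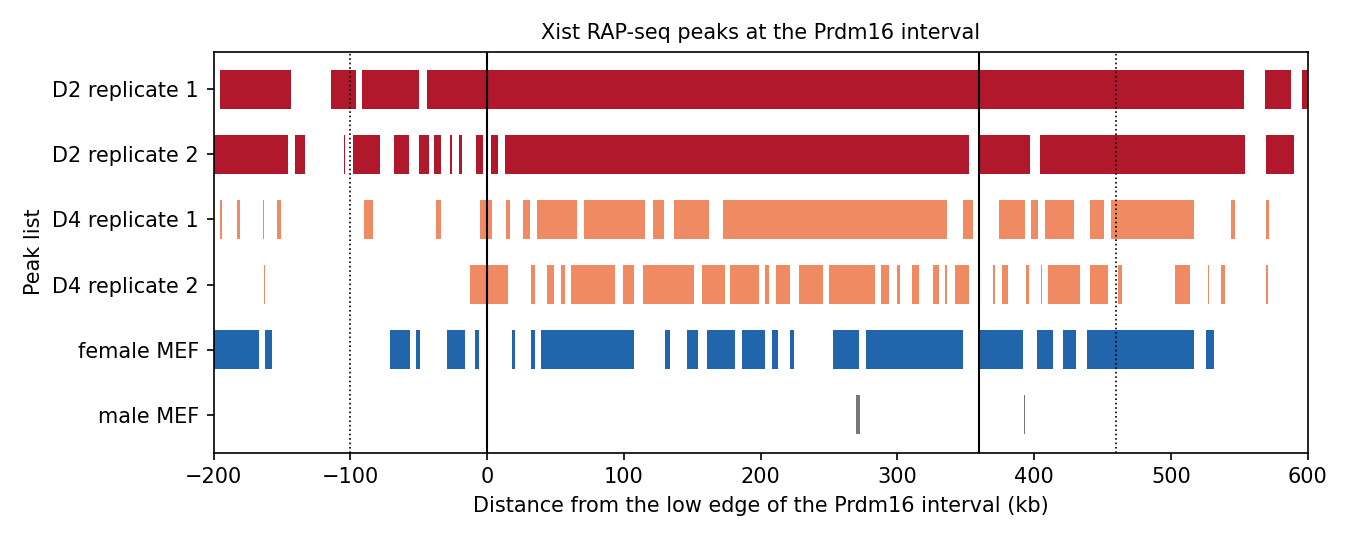
Peaks of each list (bars, 1 row per list) against the distance in kb from the low-coordinate edge of the Prdm16 interval. Solid lines mark the edges of the 360 kb interval and dotted lines the ends of the 100 kb flanks; D2 replicate 1 fills the interval with 1 peak, the D4 lists break it into 9 and 19, female MEFs into 12, and the male list has 1.

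Coverage this dense was rare elsewhere in the lists. The autosomes were divided into 6440 tiles of 360 kb, laid on each chromosome from the earliest to the latest position called in the 6 lists, and a tile was counted when at least 50% of it was covered. That held for 1.88% of tiles in D2 replicate 1, 1.07% in D2 replicate 2, 0.0932% in D4 replicate 1, 0.0776% in D4 replicate 2, 0.388% in female MEFs and 0.0% in male MEFs. In each of the 5 female lists the interval was past that level. The tiles covered at least as much as the interval numbered 5 and 4 in D2 replicates 1 and 2, 3 in each D4 list and 18 in female MEFs. Except in D4 replicate 2, these counts include a tile that itself overlaps the interval, chr4:153697054-154057053. Only 3 tiles (0.0466%) were at least 50% covered in all 5 female lists. Of these, 1 overlapped the interval and the other two lay side by side on chromosome 6. Because the interval was chosen for its peaks, nothing is read from these ranks beyond its place in the lists.

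The tile whose covered shares in the 6 lists lay nearest to those of the interval was chr6:114137443-114497442. The D2 lists covered 92.0% and 90.3% of it, the D4 lists 88.7% and 87.0%, the female MEF list 66.4% and the male one 0.0703%. The next were chr6:113777443-114137442, covered completely in all 5 female lists, and chr4:150817054-151177053. Of the latter the D2 lists covered 81.3% and 72.1%, the D4 lists 47.7% and 31.3% and the female MEF list 54.5%. The covered shares of the interval lay between those of the first and the last of these tiles in the female MEF list and in both D4 lists.

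The interval made up a larger part of the D4 lists than of the D2 lists. It held 0.467% and 0.621% of all length called in D2 replicates 1 and 2, and 3.61% and 4.27% of that in D4 replicates 1 and 2. In female MEFs it held 1.59%, and in male MEFs 0.660%. Over all autosomes the called length was 66.4 ± 15.2 Mb for D2, against 6.77 ± 1.80 Mb for D4 (SD, n = 2 each). The D4 mean was thus 0.102 times the D2 mean over the autosomes and 0.745 times in the interval. These ratios are not a like-for-like comparison, since the interval was chosen for its long D2 peaks and its covered length cannot exceed 360 kb. Why they differ was not tested. Nothing is read from their difference. With every EpiLC list cut to its 1148 strongest peaks, D2 replicates 1 and 2 still covered 360.0 and 339.7 kb of it, and D4 replicates 282.5 and 234.7 kb.

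In each female list, the longest peak in the interval had a fold above the median of the list but far below the highest. The fold enrichment of a peak, as the authors gave it, is a ratio to the caller's background on a linear scale. It was 2.82 for the D2 replicate 1 peak and 2.73 to 3.04 in replicate 2. It ran from 2.63 to 2.97 in D4 replicate 1, from 2.72 to 3.11 in D4 replicate 2 and from 2.78 to 3.25 in female MEFs. The medians of the whole lists were 2.61, 2.80, 2.82, 2.85 and 2.90 in that order, and the highest fold of any peak elsewhere in these lists was between 6.43 and 14.1. Within its list, the D2 replicate 1 peak ranked 942 of 8227 by fold, and the main peak of D2 replicate 2 ranked 804 of 7544. The longest peak in the interval ranked 286 of 1553 in D4 replicate 1, 484 of 1148 in D4 replicate 2 and 267 of 1020 in female MEFs. Weighted by length, the fold in the interval was 2.82 for D2 replicate 1, 3.03 for D2 replicate 2, 2.91 for both D4 lists, 2.97 for female MEFs and 2.90 for the male peak. The D2 and D4 means differed by 0.0193, beside an SD of 0.152 for D2 and 0.00129 for D4 (n = 2 each). Within replicate number 1 the D2 minus D4 difference was -0.0873, and within number 2 it was 0.126, so its sign was not shared.

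Within the interval, the peaks of highest fold in female MEFs were short. They were 153868124 to 153872689 (fold 3.25, 4.57 kb) and 153692017 to 153695018 (fold 3.21, 3.00 kb), which ranked 40 and 55 of 1020. In D4 replicate 2 the peak from 153888237 to 153905948 (17.7 kb) had a fold of 3.11 and ranked 99 of 1148. That stretch was uncovered in female MEFs, where it lay inside the longest gap. In D4 replicate 1 the highest fold in the interval, 2.97, belonged to its longest peak there.

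**Figure D2:**
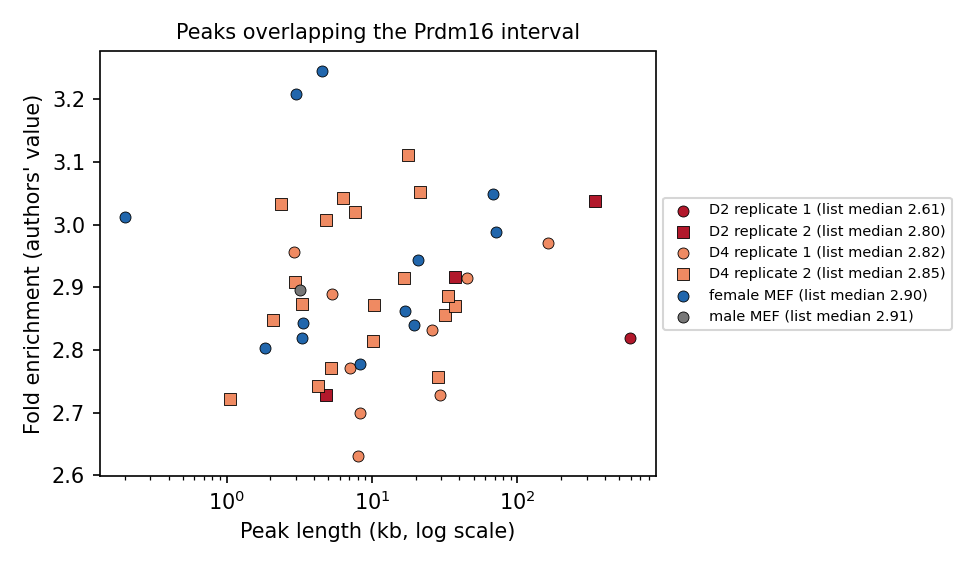
Fold enrichment given by the authors (vertical axis, linear ratio) against peak length in kb (horizontal axis, log scale) for the 45 peaks that overlap the interval, with the median fold of each whole list in the key. Fold stays between 2.63 and 3.25 while length runs from 0.2 to 597.5 kb.

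The caller's confidence was low for nearly all of these peaks. The −log10 q was 2.16 for the D2 replicate 1 peak and 2.03 for the main peak of replicate 2. In D4 replicate 1 it was 1.36 to 1.93, with no peak reaching 2. In D4 replicate 2 only the peak from 153714262 to 153716646 (2.048) reached 2, and in female MEFs only the one from 153868124 to 153872689 (2.06). Asking for a −log10 q of at least 2 therefore left the D2 lists with 360.0 and 339.7 kb, the D4 lists with 0 and 2.39 kb and the female MEF list with 4.57 kb. At a −log10 q of at least 3 no list had a peak left in the interval. A fold of at least 3 removed the single peak of D2 replicate 1 and with it all of its coverage, and left 339.7 kb in D2 replicate 2, 0 and 60.3 kb in D4 replicates 1 and 2 and 75.9 kb in female MEFs. A value belongs to a whole peak, so a long peak is kept or lost in 1 piece. The share of all peaks in each list that reach these thresholds was not computed. Whether low confidence is particular to the interval is therefore not known.

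The breaks between peaks were short. No list had a gap under 4001 bp anywhere, so shorter breaks are not visible in the lists. Within the interval D4 replicate 1 had 8 gaps between peaks of 4.87 to 11.9 kb, of which 5 were at most 10 kb. D4 replicate 2 had 18 of 4.01 to 16.2 kb, of which 16 were at most 10 kb and 11 at most 6 kb. Female MEFs had 11 of 4.22 to 28.2 kb, of which 8 were at most 10 kb. The longest gap of female MEFs ran from 153884611 to 153912814, and the second from 153767707 to 153790205 (22.5 kb). Both D2 lists covered the whole of these stretches, and D4 replicate 1 the whole of the first.

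With gaps of up to 10 kb joined, the D2 lists became 1 run each, of 667.6 kb in replicate 1 and 622.6 kb in replicate 2. D4 replicate 2 then had a run from 153691805 to 153975833 (284.0 kb, 15 peaks) that took up 78.9% of the interval, with shorter runs on either side. D4 replicate 1 had runs of 149.0 and 163.5 kb, and 2 short ones. Female MEFs had runs of 89.3, 78.5 and 95.5 kb and an isolated peak of 3.34 kb. The number of separate peaks in D4 replicates 1 and 2 went from 9 and 19 to 4 and 3, and their order in peak number turned.

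The length shared between lists was set beside the product of their covered shares. Both D4 lists covered 187.3 kb together, 52.0% of the interval, where the product of their covered shares is 52.6%. D4 replicate 1 and female MEFs shared 51.6% of the interval, with a product of 49.6%. D4 replicate 2 and female MEFs shared 39.1%, with a product of 40.1%. The shared length was thus about what the covered shares alone give, in the replicates of 1 day as well as between D4 and MEFs. Of the length covered in both D4 lists, female MEFs covered 60.5%, of that covered in 1 of them 66.4%, and of the 22.0 kb covered in neither 35.9%. The last of these shares rests on 5 segments.

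Few ends of peaks matched between lists, with shares on both sides of those over all autosomes. Of the 17 starts and ends of D4 replicate 1 within the interval, 2 had one of the same kind in D4 replicate 2 within 1 kb, 11.8% against 6.57% of all its autosomal starts and ends. Seen from D4 replicate 2, it was 2 of 37, 5.41% against 8.89%. The closer pair was the end of the longest D4 replicate 1 peak of the interval at 153996351, 73 bp from an end in D4 replicate 2. Of the 24 in female MEFs, 3 had a partner in D4 replicate 2 (12.5%, against 2.45% over all autosomes) and 0 in D4 replicate 1 (2.75% over all autosomes). The start and end of a short peak at 153692017 to 153695018 in female MEFs lay 212 and 248 bp from those of a D4 replicate 2 peak. The low end of the main D2 replicate 2 peak lay 620 bp from a D4 replicate 1 start, and its high end 138 bp from a D4 replicate 2 end.

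Every base of the interval was covered in at least 1 female list, because D2 replicate 1 filled it. All 5 female lists covered 113.3 kb (31.5%) in 19 segments, 4 of them covered 170.8 kb and 3 covered 54.2 kb. The longest segments common to all 5 ran from 153731048 to 153753517 (22.5 kb), from 153912815 to 153932198 (19.4 kb) and from 153846089 to 153859063 (13.0 kb). The male peak overlapped the second of these by 2.53 kb. No segment common to all 5 lay in the first 43.5 kb of the interval. The stretches missed by both D4 lists and by female MEFs added up to 14.1 kb in 5 segments. The longest was 153680229 to 153686049 (5.82 kb), and another, of 4.73 kb, closed the interval at its high edge.

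Coverage varied along the interval in the D4 and female MEF lists, differently in each, while D2 replicate 1 covered all of it. D2 replicate 2 was incomplete only toward the edges. Over consecutive blocks of 60 kb from the low edge, D4 replicate 1 covered 58.9%, 84.3%, 68.7%, 100%, 100% and 72.3%. D4 replicate 2 covered 43.7%, 75.5%, 84.2%, 73.7%, 77.1% and 37.0%. Female MEFs covered 42.4%, 79.5%, 51.8%, 43.6%, 71.0% and 80.5%. The first block, on the side where the gene ends in RefSeq's orientation, was the least covered in D4 replicate 1, in female MEFs and in D2 replicate 2 (86.4%). The last block, on the side where the gene starts, was the least covered in D4 replicate 2 and the most covered in female MEFs. The fourth block was complete in D4 replicate 1 and under 50% in female MEFs.

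The female lists held coverage beyond both edges of the interval, and the 2 sides differed. Only the D2 lists had a peak that crossed the high edge. D4 replicates 1 and 2 ended 4.73 and 7.485 kb inside it, with the next peak 14.5 and 10.2 kb beyond. In female MEFs no peak crossed either edge. In the 100 kb before the interval (chr4:153560001-153660000) D2 replicates 1 and 2 covered 90.0 and 50.9 kb, D4 replicates 1 and 2 covered 15.8 and 12.9 kb, female MEFs 33.4 kb and male MEFs 0 kb. In the 100 kb after it (chr4:154020001-154120000) the values were 100.0 and 92.4 kb, 59.6 and 45.9 kb, 74.2 kb and 0.197 kb. Each of the 6 lists covered more after the interval than before it. In either flank both D2 values lay above both D4 values.

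The contrast with the flanks was widest at D4, but at D2 the interval was close to full coverage, which limits the contrast there. The interval was also chosen for its peaks, and the flanks were not. Both flanks together were covered to 83.3 ± 16.5% at D2 and 33.5 ± 5.88% at D4 (SD, n = 2 each), against 97.9 ± 2.91% and 73.0 ± 11.0% of the interval. D4 thus had 0.403 times the D2 length in the flanks and 0.745 times in the interval. In female MEFs the flanks were covered to 53.8%, next to 61.5% of the interval, and their high flank was more densely covered than the interval itself. In both D4 lists the interval was more densely covered than either flank. At D2 the same held for replicate 2, while replicate 1 covered interval and high flank completely.

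**Figure D3:**
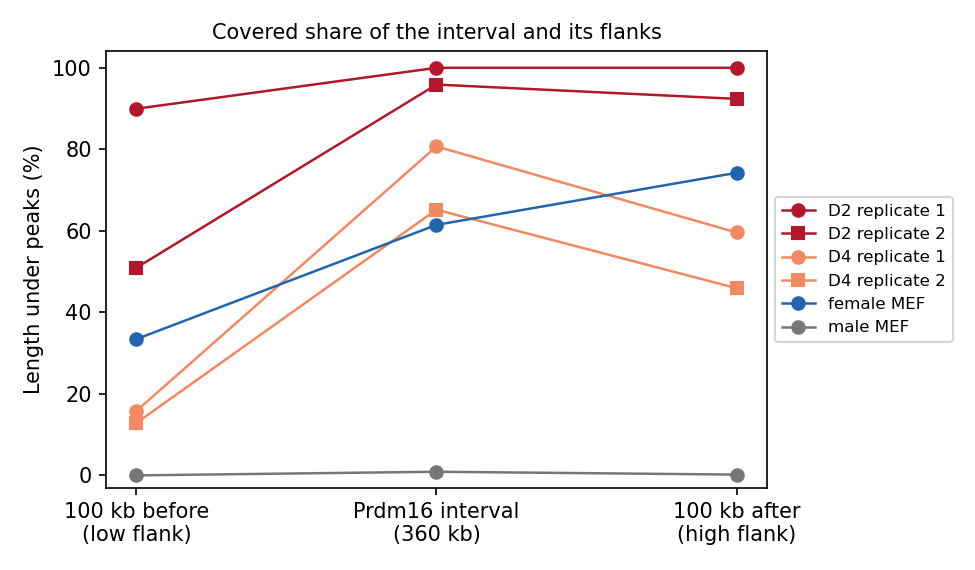
Length under peaks as a percentage of the 100 kb before the interval, of the 360 kb interval and of the 100 kb after it, with 1 line per list (circles for replicate 1 and single lists, squares for replicate 2). Both D4 lines peak in the interval, at 80.7% and 65.2%, while the female MEF line goes on rising to 74.2% after it.

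Before the low edge the D4 lists held little. D4 replicate 2 started at 153647151, 12.9 kb before the interval, and its nearest peak before that lay 162.4 kb from the edge. D4 replicate 1 started at 153655023, with its nearest earlier peak 33.4 kb from the edge. In female MEFs the first peak inside started only at 153678384, and a peak outside ended 6.26 kb before the edge. D2 replicate 2 was also less densely covered just before the edge, with 36.0% and 31.7% of the nearest pair of 20-kb bins, while D2 replicate 1 covered both completely. Further out both D2 lists had dense and sparse bins, with covered shares of 66.5% and 62.5% between 100 and 200 kb from the edge and of 91.4% and 97.1% between 300 and 400 kb. The D4 lists covered 6.65% and 0.532% in the former step and 16.2% and 17.9% in the latter.

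On the high side the female lists held further coverage in the next 200 kb, less densely in D4 replicate 2. Between 100 and 200 kb from the edge the D2 lists covered 93.6% and 94.6%, the D4 lists 59.8% and 18.2% and the female MEF list 62.8%. The last peak to end within 200 kb, a limit set after the values were seen that itself bounds how far apart the ends can lie, did so at 154213598 and 154214577 in D2 replicates 1 and 2, 979 bp apart. It ended at 154206605 and 154199635 in D4 replicates 1 and 2 and at 154191674 in female MEFs. These last peaks of the D4 and female MEF lists were short, with lengths of 2.82, 3.00 and 6.05 kb. The next peak of the D2 lists began 15.5 and 15.2 kb further on, that of the D4 lists 23.1 and 30.2 kb and that of the female MEF list 112.7 kb. A longer peak of D4 replicate 1 and one of female MEFs, which crossed from the first to the second 100 kb, ended 224 bp apart, at 154176962 and 154176738. That match was picked from all pairs of lists on this side and has no background share. Within the interval 0 of 17 D4 replicate 1 starts and ends had a female MEF partner within 1 kb. Between 200 and 300 kb from the edge the D2 lists covered 68.2% and 48.0%, the D4 lists 2.76% and 1.43% and the female MEF list 0.188%.

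Some peaks lay just outside the interval and are not counted among the 45. A female MEF peak from 154020342 to 154051928 (31.6 kb, fold 2.85) began 341 bp beyond the high edge. A D2 replicate 2 peak ended 2.85 kb before the low edge. The D2 replicate 2 peak that began at 154019320 was the one counted with the smallest overlap.

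**Figure D4:**
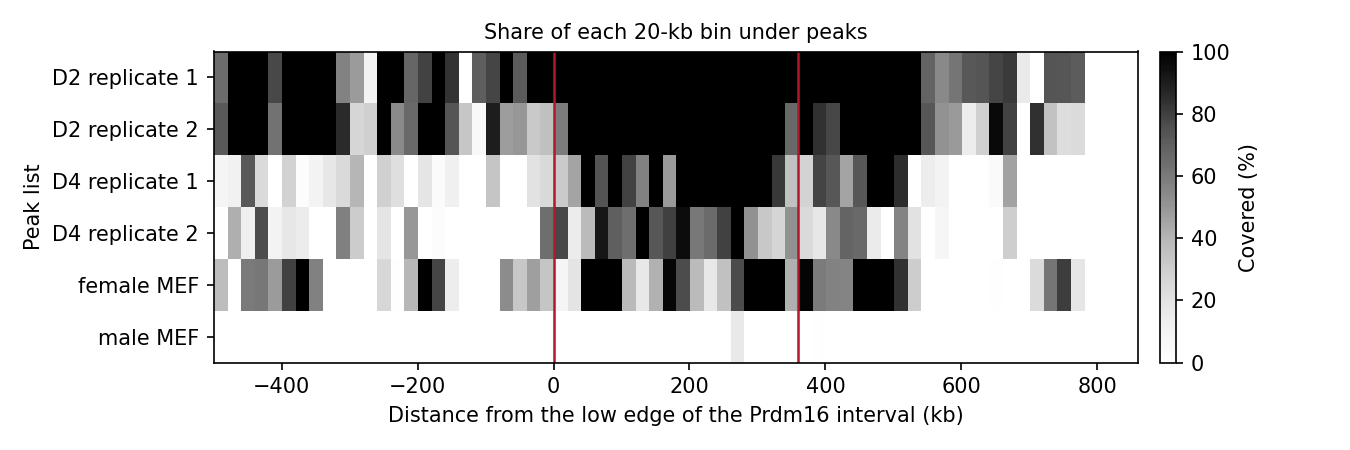
Share of each 20-kb bin under peaks (grey scale, 0 to 100%) from 500 kb before to 500 kb after the Prdm16 interval, 1 row per list, with red lines at its edges. At D4 coverage is dense over much of the interval, patchy near its low edge, and goes on in separate peaks past the high edge. At D2 it reaches outward on both sides, less densely before the low edge in replicate 2. The male row is almost empty.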

How the data were processed

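The data were 6 peak lists of Xist pulldowns, each from a separate library, and data of the 5 inputs were not used here. The submitters' processing notes name mm9 and the tools MACS2 2.2.7.1, bedtools 2.26.0, Picard, SAMtools 1.9, Bowtie2 2.2.9 and Trim Galore 0.4.1. Settings, and the input behind each list, are not given in the sources used here, so D2 and D4 lists may share an input. The deposited columns are start and end, a score (10 times the −log10 q rounded down, save for 1 peak in each of 2 lists, and not used further), the fold enrichment as a ratio, and the −log10 p and −log10 q of each peak. These are the authors' values, and they carry no read counts, so sequencing depth and counting error cannot be stated.

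Peaks were clipped to the interval and merged, and covered lengths, gaps and shared lengths were computed in Python 3.11.15, with code tested on simulated peaks. No test was run, because the interval was chosen from these lists. The members and the rule for named items (Prdm16 and neighbouring genes, peaks and gaps of the interval, the 3 nearest tiles) were chosen with earlier results of these data known. Peaks beyond the edges were named after their values were seen. Alternatives were stricter q and fold thresholds, lists of equal number, another overlap rule, joined gaps, peaks without male overlap, other tile widths and each replicate left out.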

Additional observations from a re-analysis of the deposited data

How the results depend on the processing

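Of 121 values recomputed under alternatives, 57 counted as unmoved, 64 as moved and 0 changed sign. D2 and D4 lengths and their difference counted as moved past 1 SD between replicates, and peak numbers, MEF values, shared lengths and tile shares past a factor of 1.5. Some values could not move under these rules. With 2 lists, leaving 1 out always shifts a mean length or the difference by less than 1 SD. The difference paired by number equals the unpaired one by construction. Cutting to 1148 peaks left D4 replicate 2 and both MEF lists whole. The count of unmoved values is therefore no measure of stability. Values run D2 mean, D4 mean, female MEF, male MEF. With a −log10 q of at least 3, covered length, peak number, flank length, the D2 minus D4 difference and the length common to both lists of a day were all 0. With a −log10 q of at least 2, covered length was 349.9, 1.19, 4.57 and 0 kb, peaks numbered 1, 0.5, 1 and 0, flank length was 99.8, 0, 0 and 0 kb, the difference was 348.7 kb and both D4 lists shared 0 kb. With a fold of at least 3 the values were 169.9, 30.1, 75.9 and 0 kb, 0.5, 3, 4 and 0 peaks and 27.8, 0, 14.2 and 0 kb of flank. The difference was then 139.7 kb, and 0 kb was common to both lists of either day. Without peaks that overlap a male peak, D2 covered 2.40 kb with 0.5 peaks, D4 164.1 kb and male MEFs 0 kb with 0 peaks, since the long D2 peaks hold the male one. With gaps of up to 10 kb joined, D4 covered 324.4 kb, and peaks numbered 1 at D2, 3.5 at D4 and 4 in female MEFs. With lists of equal number, D2 had 1 peak and 109.5 kb of flank. With only peaks at least 50% inside, the D2 flanks had 64.9 kb. With 100 kb added on either side the difference was 189.5 kb.

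With each replicate left out in turn, covered length was 345.2 to 360.0 kb at D2 and 234.7 to 290.5 kb at D4, peaks numbered 1 to 3 and 9 to 19, flank length was 143.3 to 190.0 kb and 58.8 to 75.4 kb, and the difference was 62.1 to 117.9 kb. The length common to both lists of a day has no value with 1 list. Paired by number (replicate block), with no test, the difference was 90.0 kb, the mean of 69.5 and 110.5 kb. The share of tiles covered at least as much as the interval was 0.0776% and 0.0621% in D2 replicates 1 and 2, 0.379% and 0.203% with tiles of 100 kb, and 0% in both with tiles of 1 Mb. With tiles of 1 Mb it was 0.173% in female MEFs (0.280% before) and 0.0432% in male MEFs (0.745% before). Unknown depth limits all these values, since the length a caller reports grows with it.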
